A study of Homo sapiens with 9 samples.

Results

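The genes described here build and edit heparan sulfate, and were taken as the 10 genes HS6ST1, HS6ST2, HS2ST1, HS3ST1, EXT1, EXT2, NDST1, NDST2, GLCE and SULF2. Every probe on the array whose annotated gene symbol was one of these was read, array by array, from the table of signals that had not been normalized, together with its detection p. This gave 15 probes of the 30108 that carry a single gene symbol, for 9 of the 10 genes, out of 20042 genes with such a probe. NDST2 was not analysed here. The set was chosen on measured values, since HS6ST2 was already known to be among the genes that stood highest on the knockdown arrays against vector. Values of the 10 genes against vector are therefore a description, and counts of those past a threshold are printed only beside the same count over all genes.

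Heparan sulfate is a long, unbranched and sulfated sugar chain that is carried by core proteins such as syndecans and glypicans at the cell surface. EXT1 and EXT2 form the polymerase that extends the chain, NDST enzymes replace acetyl groups with sulfate on glucosamine, GLCE turns glucuronic into iduronic acid, and O-sulfotransferases then add sulfate at further positions. The resulting pattern decides which growth factors and other proteins bind, and the SULF enzymes trim it outside the cell.

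The RNA came from BON-1, an established human cell line derived from a pancreatic neuroendocrine tumour. It was hybridised to 9 Illumina HumanHT-12 v4 arrays, 1 RNA sample each. Vector cells carried the control lentiviral vector, and knockdown cells carried 1 of 2 short hairpin RNAs (shRNA 1 or shRNA 2) against RABL6A, a RAB-like GTPase, in the pLKO.1 lentiviral vector. Each of the 3 groups had 3 arrays, from sets of cells that were generated separately, and all groups shared the cell line and the medium with serum. The labels do not say whether the cells were clones or how long after infection they were taken, and p-values measure only the spread between these samples. In RNA from whole cultures, fewer cells that express a gene and less RNA per cell cannot be told apart.

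All 8 neuroendocrine markers tried (such as CHGA and SYP) were detected on all 9 arrays. Among markers of other cells, COL3A1 and LUM of fibroblasts, PECAM1 and CDH5 of endothelium, and PTPRC and CD3E of immune cells were detected on 0 arrays. KDR of endothelium and CD14 and LYZ of immune cells were detected on all 9 arrays, VWF on 5, and the other 4 fibroblast markers on 1 to 3. The median raw signal per array lay between 119 and 129, and between 19565 and 21201 probes were detected above background. RABL6, the targeted gene, read 7.57, 7.73 and 7.82 on the normalized log2 scale on the vector arrays. The shRNA 1 arrays read 6.01, 5.98 and 5.22, and the shRNA 2 arrays 5.67, 5.69 and 5.69. As log2 it fell by 1.99 with a limma adjusted p of 0.0014 (SE 0.19), was lower in 6 of 6 knockdown arrays, and fell by 1.01 when no background was subtracted.

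The 2 shRNA arrays numbered 2 went against their labels. Across all 12498 genes, the Pearson r of shRNA 1 replicate 2 was 0.994 with replicate 1 and 0.989 with replicate 3 of shRNA 2, but 0.933 and 0.945 with the other arrays of its own hairpin. In the same way shRNA 2 replicate 2 was at 0.995 and 0.989 with shRNA 1 replicates 1 and 3, and at 0.933 and 0.939 with its own. Vector arrays correlated with each other at 0.995. Groups below follow the labels, and results are also given without these arrays, on 7 arrays. Leaving them out was decided with these correlations known, and removing arrays that differ from their group makes the spread smaller whatever the reason. If the arrays numbered 1 and 3 were the ones with exchanged labels, the values of the hairpins would trade places.

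The promoters of HS6ST2, NDST1 and GLCE are shown because HS6ST2 stood highest and NDST1 lowest against vector, and GLCE had knockdown arrays on both sides of vector. Each sequence holds the 250 bases before the RefSeq start of the gene in GRCh38.p14. Capitals mark matches to the GC box GGGCGG on either strand. HS6ST2 lies on the minus strand at chrX:132961371-132961620, NDST1 on the plus strand at chr5:150497529-150497778, and GLCE on the plus strand at chr15:69160385-69160634.
HS6ST2: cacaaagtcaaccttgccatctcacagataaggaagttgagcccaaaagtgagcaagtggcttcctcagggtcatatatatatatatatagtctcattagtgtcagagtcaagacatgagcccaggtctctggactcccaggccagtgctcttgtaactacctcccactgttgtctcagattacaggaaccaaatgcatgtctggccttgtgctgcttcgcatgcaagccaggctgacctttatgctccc
NDST1: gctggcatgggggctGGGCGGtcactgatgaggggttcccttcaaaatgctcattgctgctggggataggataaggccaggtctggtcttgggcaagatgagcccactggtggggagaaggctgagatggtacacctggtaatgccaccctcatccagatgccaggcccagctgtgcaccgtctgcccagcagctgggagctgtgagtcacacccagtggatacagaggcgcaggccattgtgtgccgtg
GLCE: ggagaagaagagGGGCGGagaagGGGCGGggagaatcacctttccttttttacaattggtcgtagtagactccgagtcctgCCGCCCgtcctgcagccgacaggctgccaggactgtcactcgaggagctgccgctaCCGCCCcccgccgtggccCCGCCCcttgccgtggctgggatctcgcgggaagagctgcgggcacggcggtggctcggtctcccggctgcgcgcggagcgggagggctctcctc

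In windows from 250 bases before to 50 after the start, 9 of the 10 genes had a RefSeq entry. The HS6ST2 window had 2 CpG dinucleotides and a GC content of 47.3%, and 11% of 35116 promoters had fewer CpG. The GLCE window had 29 CpG and a GC content of 68.7%, and the NDST1 window 8 CpG and 60.7%, against medians of 14 CpG and 58.7% over all promoters. HS6ST1 had the highest GC content of the 9, at 79.7% with 47 CpG. The GC box was matched 5 times for GLCE, 1 time for NDST1 and 0 times for HS6ST2, and 45% of all promoters hold it. An E box (CACGTG, in 7.26% of promoters), an E2F-type motif (TTTNNCGC, in 6.89%), a TATA box (TATAAA, in 11.5%) and a TEAD-type motif (GGAATG, in 14%) were searched on both strands too. None of these 4 was matched in the windows of HS6ST2, NDST1 or GLCE. Such matches describe letters and show no binding.

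The O-sulfotransferase HS6ST2, which adds sulfate to carbon 6 of glucosamine, stood far higher on every knockdown array. Its raw signal was 161, 164 and 166 on vector arrays, 378, 1088 and 274 for shRNA 1, and 854, 356 and 606 for shRNA 2. The normalized log2 values of this probe (ILMN_1739429) were 5.92, 5.82 and 6.05 on vector arrays, 8.16, 9.85 and 7.64 for shRNA 1, and 9.65, 7.99 and 9.03 for shRNA 2. The lowest knockdown array, shRNA 1 replicate 3, still lay well above the highest vector array, and the knockdown arrays differed among themselves far more than the vector arrays. Group means were 5.93 ± 0.11 with vector, 8.55 ± 1.16 with shRNA 1 and 8.89 ± 0.84 with shRNA 2 (SD, n = 3). The mean of both hairpins was 2.79 higher on the log2 scale (SE 0.50, 95% interval 1.66 to 3.92), which is 6.92-fold. On 7 arrays it was 2.69 higher (SE 0.18). Because HS6ST2 was already known to stand high in this contrast, these sizes and the interval are a description and no test. The vector signals were detected but lay near background, so the size of the fold depends on the background correction. The log2 difference was 2.10 under normexp with an offset of 50 and 1.73 with no background subtracted.

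HS6ST2 has 3 probes on the array. ILMN_2415583, annotated to another transcript of the gene, read 166, 140 and 138 in raw signal on vector arrays, 281, 962 and 238 for shRNA 1, and 818, 332 and 465 for shRNA 2. Its log2 values were 2.93 higher with knockdown (SE 0.56) and correlated with those of the first probe at 0.985 over the 9 arrays. Both probes put shRNA 1 replicate 2 highest and shRNA 1 replicate 3 lowest among the knockdown arrays. The last probe, ILMN_2298755, was detected on 0 arrays, with raw signals from 105 to 119, although it is annotated to the same transcript as ILMN_2415583.

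**Figure D1:**
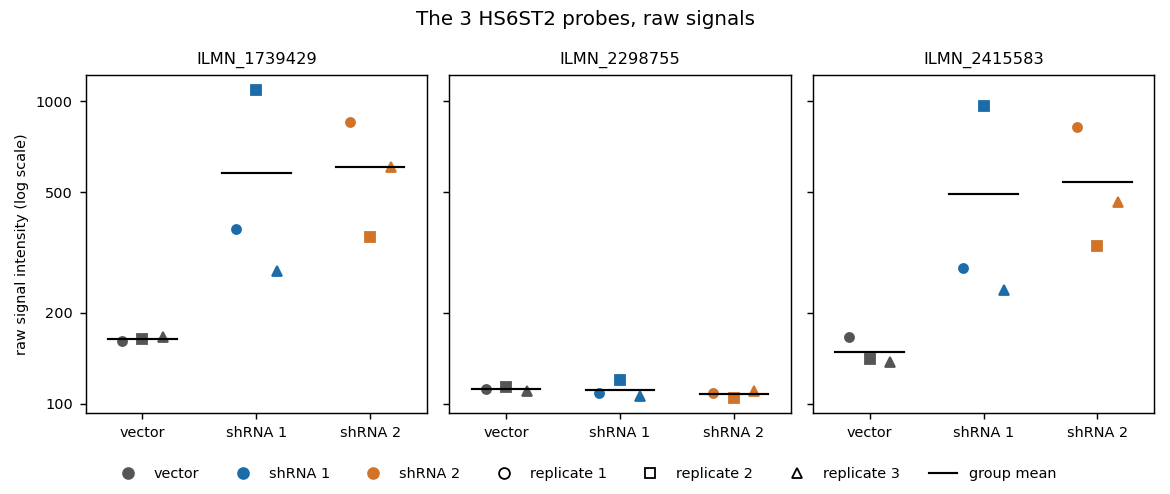
Raw signal intensity (log axis) of the 3 HS6ST2 probes on each array, by group, with a bar at the group mean of 3 arrays and marker shapes for replicate numbers. ILMN_1739429 and ILMN_2415583 lie between 138 and 166 with vector and between 238 and 1088 with knockdown, while ILMN_2298755 stays between 105 and 119 on all 9 arrays.

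HS6ST1, the other 6-O-sulfotransferase of the set, was close to the background of the array. Its raw signal ran from 114 to 148, and it was detected on 0 of 3 vector arrays and on 3 of 6 knockdown arrays (shRNA 1 replicates 1 and 2 and shRNA 2 replicate 1). Its log2 values were 4.74, 4.92 and 4.80 on vector arrays, 5.19, 5.40 and 4.73 for shRNA 1, and 4.99, 4.76 and 4.56 for shRNA 2. The groups overlapped, and because the vector level was not above background no fold is given.

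HS3ST1 encodes a 3-O-sulfotransferase that is known for completing the binding site for antithrombin. Its log2 values were 7.44, 7.66 and 7.55 on vector arrays, 7.88, 8.99 and 7.77 for shRNA 1, and 8.61, 8.06 and 8.88 for shRNA 2. All 6 knockdown arrays were above all vector arrays on this scale, with shRNA 1 replicates 1 and 3 closest to them. In raw signal those 2 arrays, at 329 and 292, lay within the vector range of 277 to 329. The mean was 0.82 higher with knockdown (SE 0.29, 1.76-fold) on 9 arrays and 0.74 higher (SE 0.11) on 7.

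HS2ST1, which sulfates carbon 2 of the uronic acid, divided the knockdown arrays. It read 7.77, 7.63 and 7.43 on vector arrays, 7.38, 8.07 and 7.22 for shRNA 1, and 7.92, 7.43 and 8.12 for shRNA 2. Of the knockdown arrays 3 were above all vector arrays, 2 were below all of them and shRNA 2 replicate 2 was between. The mean difference of 0.08 (SE 0.22, 95% interval -0.43 to 0.59) was smaller than its error, and it was -0.08 when arrays were centred on their medians.

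EXT1, the main catalytic partner of the chain polymerase, was higher on each knockdown array on the normalized scale. It read 7.63, 7.77 and 7.71 on vector arrays, 8.91, 8.33 and 8.57 for shRNA 1, and 8.44, 8.88 and 7.98 for shRNA 2. The vector arrays lay close together, and the nearest knockdown array to them was shRNA 2 replicate 3. In raw signal that array, at 346, lay within the vector range of 303 to 348. Group means were 7.70 ± 0.07, 8.60 ± 0.29 and 8.43 ± 0.45 (SD, n = 3), and the mean of both hairpins was 0.81 higher (SE 0.21, 95% interval 0.34 to 1.29, 1.76-fold). On 7 arrays it was 0.77 higher (SE 0.14), and on 9 arrays after median centring 0.65 higher (SE 0.21).

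EXT2, its partner in the polymerase, did not stand apart from vector in 1 direction. Its main probe (ILMN_1761259) read 8.37, 8.33 and 8.26 on vector arrays, 8.70, 8.11 and 8.47 for shRNA 1, and 8.12, 8.74 and 8.20 for shRNA 2. Of the knockdown arrays 3 were above all vector arrays and 3 below all of them. The mean difference was 0.07 (SE 0.18, 95% interval -0.34 to 0.48), and it was -0.11 after median centring. A further EXT2 probe (ILMN_2328029) gave 0.19 (SE 0.20) and correlated with the first at 0.93 over the 9 arrays, and ILMN_1679698 was detected on 0 arrays.

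NDST1, the N-deacetylase and N-sulfotransferase that opens the modification of the chain, was lower on every knockdown array. Its log2 values were 6.66, 6.97 and 6.57 on vector arrays, 5.62, 5.54 and 6.14 for shRNA 1, and 4.95, 5.76 and 5.90 for shRNA 2. In raw signal these were 203, 242 and 196 on vector arrays, 148, 153 and 161 for shRNA 1, and 127, 154 and 159 for shRNA 2. On shRNA 2 replicate 1, the lowest array, the probe was not detected (detection p 0.0571), so knockdown levels were near background. The group means were 6.73 ± 0.21, 5.77 ± 0.32 and 5.54 ± 0.51 (SD, n = 3). The mean of both hairpins fell by 1.08 on the log2 scale (SE 0.24), 2.12-fold lower, and by 1.08 on 7 arrays (SE 0.23). The size depends on the background correction, since the log2 difference was -0.45 with no background subtracted and -0.63 under normexp with an offset of 50.

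GLCE, the glucuronyl epimerase, read 9.81, 9.76 and 9.65 on vector arrays, 10.63, 9.16 and 10.56 for shRNA 1, and 9.20, 10.57 and 9.27 for shRNA 2. Each knockdown array lay outside the vector range, with 3 above it (shRNA 1 replicates 1 and 3, shRNA 2 replicate 2) and 3 below it. The mean difference of 0.16 (SE 0.40) hides this spread, since the SD was 0.83 for shRNA 1 and 0.77 for shRNA 2 against 0.08 for vector. After median centring the mean difference was 0.00.

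SULF2, the sulfatase that removes 6-O-sulfate outside the cell, was at background. ILMN_1667460 read 125, 120 and 127 in raw signal on vector arrays, 126, 151 and 114 for shRNA 1, and 133, 117 and 122 for shRNA 2. It was detected on shRNA 1 replicate 2 and on shRNA 2 replicate 1 only, and the other SULF2 probes were detected on 0 arrays. No SULF2 probe therefore passed the filter of detection on at least 3 arrays.

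**Figure D2:**
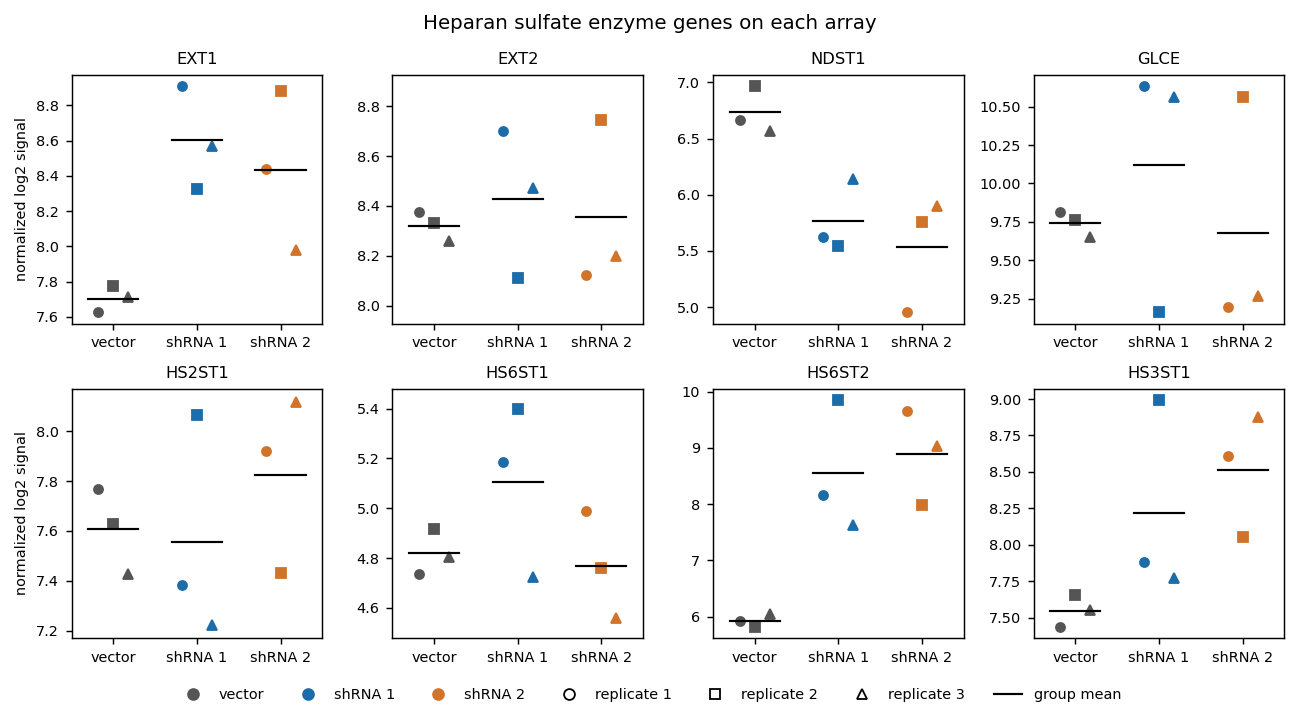
Normalized log2 signal of the 8 tested heparan sulfate genes on each array (vertical axes differ between genes), by group, with a bar at the mean of 3 arrays and marker shapes for replicate numbers. Vector arrays lie close together. The knockdown arrays are all above vector for EXT1, HS6ST2 and HS3ST1, all below for NDST1, and on both sides for GLCE, EXT2 and HS2ST1.

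Of the 15 probes 10 passed the detection filter, for 8 genes. In the fit of both hairpins against vector, 16.6% of all 12498 genes passed limma's test (adjusted by Benjamini-Hochberg, under 0.05) and are called below, 8.54% higher (1067 genes) and 8.09% lower (1011 genes). Of the 8 genes 3 were called, EXT1 and HS6ST2 higher and NDST1 lower. Because this contrast served to choose the set, that count tests nothing and nothing is read from it. It was 0 without vector replicate 2, 1 without vector replicate 1 or 3, and 2 without shRNA 1 replicate 1 or 3 or shRNA 2 replicate 1. After median centring, where 16.4% of all genes were called, it was 2, since EXT1 lost its call. On the normalized scale all 6 knockdown arrays were above all vector arrays for 3 of the 8 genes and for 15% of all genes. They were below all vector arrays for 1 of 8 and for 14.2% of all genes. The median change of the 8 genes was 0.14, against 0.03 over all genes. It lies between the values of HS6ST1, which is near background, and GLCE, whose knockdown arrays lay on both sides of vector. Nothing is read from it. On 7 arrays 41.2% of all genes were called, and 4 of the 8, from which again nothing is read. Median centring in place of quantile normalization moved the median of all genes from 0.03 to -0.08 and the split of calls to 613 higher and 1432 lower.

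The comparison of shRNA 2 with shRNA 1 was not used to choose the genes. On 9 arrays limma called 0 of the 12498 genes (0%). At an unadjusted limma p under 0.05 there were 96 genes (0.768%), of which 0 were among the 8. By label each hairpin group held an array that resembled the other hairpin, so this comparison could hardly call any gene. Nothing about the hairpins is read from the 0 calls. Every one of the 8 had an adjusted p of 0.988. The differences, as shRNA 2 minus shRNA 1, were small beside their intervals. HS6ST2 differed by 0.34 (95% interval -0.97 to 1.64) and HS3ST1 by 0.30 (-0.46 to 1.06). GLCE differed by -0.44 (-1.49 to 0.60), and NDST1 by -0.23 (-0.86 to 0.39). EXT1, EXT2 and HS2ST1 lay between -0.17 and 0.27. The differences moved with single arrays, and on leaving out 1 array that of GLCE ran from -0.92 to -0.18, of HS3ST1 from 0.078 to 0.69 and of HS2ST1 from 0.098 to 0.52. These intervals leave room for sizeable differences in either direction.

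On the 7 arrays the same comparison called 6 of the 8 genes, where 41.2% of all genes were called. The 2 arrays left out were picked because their profiles in these data resembled the other hairpin. That choice by itself tends to widen differences between the hairpins and to narrow the spread. The p-values and intervals below are therefore a description and no test of a hairpin effect. GLCE was lower with shRNA 2 by a log2 difference of -1.36 (95% interval -1.65 to -1.08, limma adjusted p = 0.000128). HS6ST2 was higher by 1.44 (0.90 to 1.98, adjusted p = 0.0019) and HS3ST1 by 0.92 (0.59 to 1.25, adjusted p = 0.00158). HS2ST1 was higher as well, by 0.72 (adjusted p = 0.0068). EXT1 and EXT2 were lower, by -0.53 (adjusted p = 0.0476) and -0.43 (adjusted p = 0.0309). NDST1, at -0.45, had an adjusted p of 0.272. HS6ST1 was not called, and its probe was detected on only 2 of the 4 knockdown arrays used here, so no size is given. The 2 fits rest on different arrays, and which hairpin the higher values belong to depends on which labels are right.

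Read array by array, GLCE, EXT2 and EXT1 divided the 6 knockdown arrays one way and HS6ST2, HS3ST1 and HS2ST1 the other. On shRNA 1 replicates 1 and 3 and shRNA 2 replicate 2, GLCE stood 0.89, 0.82 and 0.82 above the vector mean, and HS6ST2 2.24, 1.71 and 2.06 above it. On shRNA 1 replicate 2 and shRNA 2 replicates 1 and 3, GLCE stood at -0.58, -0.55 and -0.47, and HS6ST2 at 3.92, 3.72 and 3.10. For HS6ST2 these latter arrays are the 3 highest. Over the 9 arrays GLCE correlated with EXT2 at 0.95 and with HS2ST1 at -0.88, and HS6ST2 with HS3ST1 at 0.92 and with NDST1 at -0.92. These are descriptions over arrays that share a vector group and a division seen across all genes. NDST1 and HS6ST1 did not divide the arrays in this way. On the normalized scale EXT1 ran above vector throughout, and its smallest deviation, 0.28, was on shRNA 2 replicate 3.

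**Figure D3:**
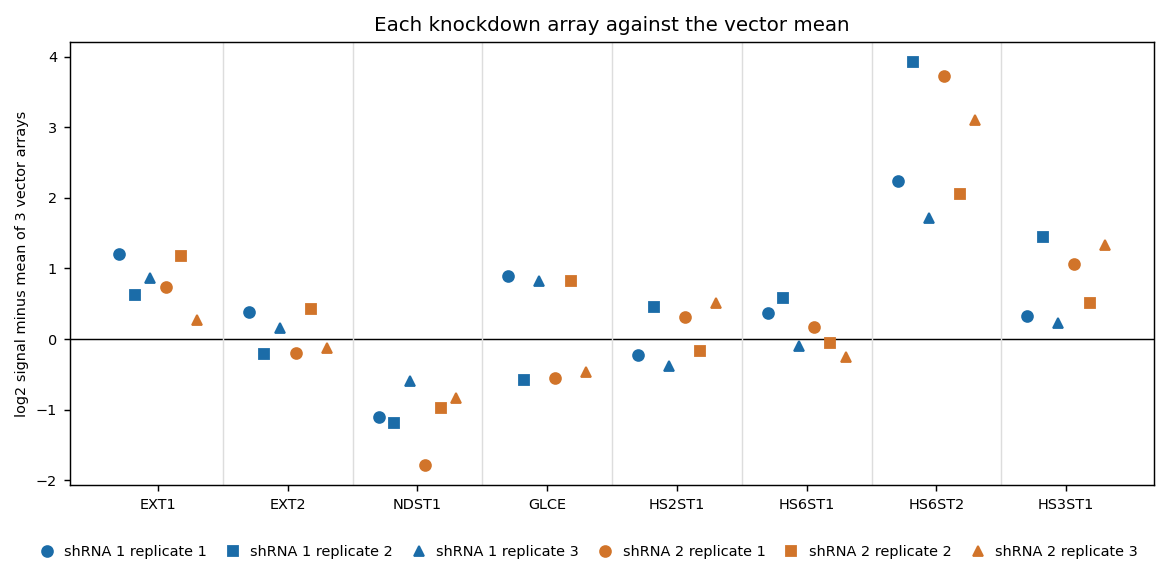
Log2 signal of each knockdown array minus the mean of the 3 vector arrays, for the 8 tested heparan sulfate genes, with colour for the hairpin label and shape for the replicate number. For GLCE the shRNA 1 array numbered 2 (square) sits with shRNA 2 arrays 1 and 3, near -0.58 to -0.47, and the shRNA 2 array numbered 2 sits with shRNA 1 arrays 1 and 3, near 0.82 to 0.89.

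The genes whose values followed each of the 8 most closely over the 9 arrays were found among 2863 genes with an SD of at least 0.5. For HS6ST2 they were VSIR, DRAM1 and SLC40A1, each with Pearson r 0.995, and for EXT1 TMEM140 (0.997), CNNM1 (0.992) and MAPRE3 (0.991). GLCE was followed by ACSL1, SCNN1A and PLOD1 (0.994 each) and EXT2 by C1orf21 (0.992), C1GALT1C1L (0.991) and PPM1L (0.986). For NDST1 they were RNF26 (0.989), CTPS1 (0.983) and MORN4 (0.974), and for HS3ST1 DCAF6 (0.973), MAP3K20 (0.972) and MITF (0.968). HS2ST1 had CAPRIN2 (0.962), KLHDC8B (0.949) and ATP9A (0.939). HS6ST1, near background, had no gene above HEXIM1 (0.720). All these values rest on the same 9 arrays, which share 1 vector group.

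Of 77 other genes of the pathway, 55 could be tested, since 19 were too dim and 3 were not analysed here. Both hairpins against vector gave 8 higher and 5 lower, 23.6% of those tested beside 16.6% of all genes, with a median change of -0.02 beside 0.03. The split was 5 higher and 7 lower after median centring. On 7 arrays 13 were higher and 17 lower, 54.5% beside 41.2%. All adjusted p-values here are limma's, over all genes. Each gene named as changed was on the same side of vector in 6 of 6 knockdown arrays on the normalized scale. Leaving out vector replicate 1, 2 or 3 left 5, 4 and 6 calls, and leaving out replicate 1 of shRNA 1 or shRNA 2 left 7 and 8.

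Among the 12 core proteins tested, which carry the chains, 2 rose and 3 fell, 41.7% beside 16.6% of all genes. SDC2, the syndecan-2 gene, read 7.46, 7.47 and 7.42 on vector arrays, 9.11, 8.73 and 9.04 for shRNA 1, and 8.92, 9.13 and 8.68 for shRNA 2. It rose by 1.49 (SE 0.14, 2.80-fold, adjusted p = 0.0014). SDC4, another syndecan of the cell surface, read 8.63, 8.63 and 8.64 on vector arrays, 7.18, 7.30 and 7.90 for shRNA 1, and 7.06, 6.99 and 7.71 for shRNA 2. It fell by 1.28 (SE 0.21, 2.42-fold lower, adjusted p = 0.00694), so these syndecans moved in opposite directions. SDC1, the syndecan of epithelia, fell by 0.68 (SE 0.18, adjusted p = 0.0337). GPC6, a glypican anchored by lipid, read 8.81, 8.72 and 8.76 on vector arrays, 6.72, 8.0 and 7.25 for shRNA 1, and 7.97, 7.05 and 8.25 for shRNA 2. It fell by 1.23 (SE 0.32, adjusted p = 0.0336), and its other probe fell by 0.70 (SE 0.14, adjusted p = 0.0151). NRP1, a semaphorin and VEGF coreceptor that can carry a chain, rose by 0.79 (SE 0.22, adjusted p = 0.0434), but another NRP1 probe changed by 0.12 (SE 0.13, adjusted p = 0.558). The calls of SDC1, GPC6 and NRP1 were lost on leaving out any one vector replicate or shRNA 1 replicate 1, with adjusted p up to 0.141, 0.12 and 0.165. Leaving out shRNA 2 replicate 1 ended those of SDC1 and GPC6, shRNA 1 replicate 3 those of GPC6 and NRP1, and shRNA 2 replicate 3 that of NRP1, which was also lost after median centring or with no filter on dim probes (adjusted p 0.0698 and 0.0584). The calls of SDC2 and SDC4 held in all 20 alternatives.

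Of 13 genes that supply sulfate and sugar nucleotides 4 rose and 0 fell, 30.8% beside 16.6% of all genes. On 7 arrays this was not in 1 direction, with 7 higher and 3 lower, 76.9% beside 41.2%. PAPSS2, which makes the sulfate donor PAPS, read 8.37, 8.14 and 8.38 on vector arrays, 9.81, 9.95 and 9.51 for shRNA 1, and 9.80, 9.99 and 9.52 for shRNA 2. It rose by 1.46 (SE 0.15, 2.76-fold, adjusted p = 0.00186). SLC35D2, a Golgi transporter of nucleotide sugars, rose by 0.81 (SE 0.11, adjusted p = 0.00414), and both calls held in all 20 alternatives. UGDH, which makes UDP-glucuronic acid, rose by 0.78 (SE 0.15, adjusted p = 0.0125), and SLC26A2, a sulfate transporter of the plasma membrane, by 0.57 (SE 0.14, adjusted p = 0.0276). On leaving out any one vector replicate these last calls were lost, with adjusted p up to 0.0718 for UGDH and 0.137 for SLC26A2, which was also lost without replicate 1 of shRNA 1 or of shRNA 2. The SLC26A2 difference was 0.31 with no background subtracted, and its call was lost after median centring (adjusted p = 0.0842). PAPSS1, the other PAPS synthase, differed by 0.56 (adjusted p = 0.162), and its second probe by 0.73 (adjusted p = 0.0311).

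**Figure D4:**
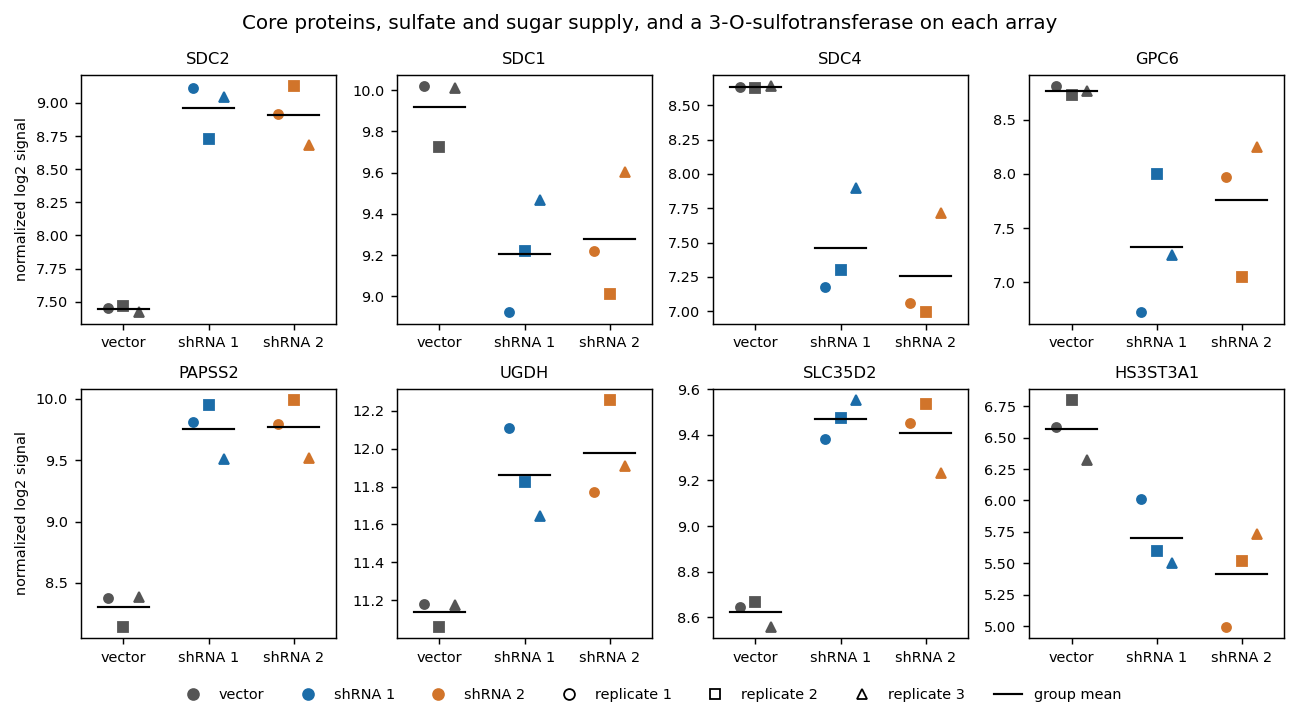
Normalized log2 signal of 4 core protein genes, 3 supply genes and HS3ST3A1 on each array (vertical axes differ), by group, with a bar at the mean of 3 arrays and shapes for replicate numbers. All 6 knockdown arrays lie above vector for SDC2, PAPSS2, UGDH and SLC35D2, and below vector for SDC1, SDC4, GPC6 and HS3ST3A1.

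The 5 other enzymes tested that make or edit the chain included 1 that fell and 0 that rose, 20% beside 16.6% of all genes. On 7 arrays 3 were lower and 0 higher, 60% beside 41.2%. HS3ST3A1, a further 3-O-sulfotransferase, read 6.59, 6.80 and 6.32 on vector arrays, 6.01, 5.60 and 5.51 for shRNA 1, and 5.0, 5.52 and 5.73 for shRNA 2. It fell by 1.01 (SE 0.20, 2.01-fold lower, adjusted p = 0.0136), a call lost without vector replicate 1 or 2 (adjusted p 0.0651 and 0.0781), and it fell by 0.41 with no background subtracted and by 0.57 under normexp. HPSE, the heparanase that cleaves chains, differed by -0.43 (adjusted p = 0.167), and its second probe by -0.55 (adjusted p = 0.0232). HS3ST1, described above, was on the other side of vector on all 6 knockdown arrays on the normalized scale. Of 6 genes that build the linkage to the protein limma called 0 on 9 arrays, beside 16.6% of all genes, with 1 at an unadjusted p under 0.05. On 7 arrays it called 4, 1 higher and 3 lower, 66.7% beside 41.2%. In the lysosomal list 1 of 7 fell, 14.3% beside 16.6% of all genes. This was IDUA, the iduronidase, which fell by 0.48 (SE 0.14, limma adjusted p = 0.0441). On leaving out any one vector replicate that call was lost (adjusted p up to 0.157), as it was without shRNA 1 replicate 1 or 3 or shRNA 2 replicate 1 or 2. With no background subtracted the difference was -0.15 (adjusted p = 0.121), under normexp -0.23 (adjusted p = 0.095), and in the authors' value table the adjusted p was 0.0571.

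In the chondroitin and dermatan sulfate branch, which uses the same linkage, 2 of 12 rose and 0 fell, 16.7% beside 16.6% of all genes. On 7 arrays 2 were higher and 2 lower, 33.3% beside 41.2%. CHSY1, the chondroitin synthase, read 8.99, 8.73 and 9.01 on vector arrays, 9.87, 10.13 and 9.64 for shRNA 1, and 10.12, 9.60 and 10.07 for shRNA 2. It rose by 1.00 (SE 0.17, adjusted p = 0.00727), a call lost without vector replicate 2 (adjusted p = 0.0526). CSGALNACT2, which starts chondroitin chains, rose by 0.63 (SE 0.18, adjusted p = 0.0444), a call lost on leaving out any 1 array other than shRNA 2 replicate 3 (highest adjusted p 0.171), and the difference was 0.30 with no background subtracted (adjusted p = 0.0648). It was also lost under normexp, after median centring and with no filter on dim probes. In raw signal CSGALNACT2 on shRNA 2 replicate 3, at 177, lay within the vector range of 165 to 187.

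**Figure D5:**
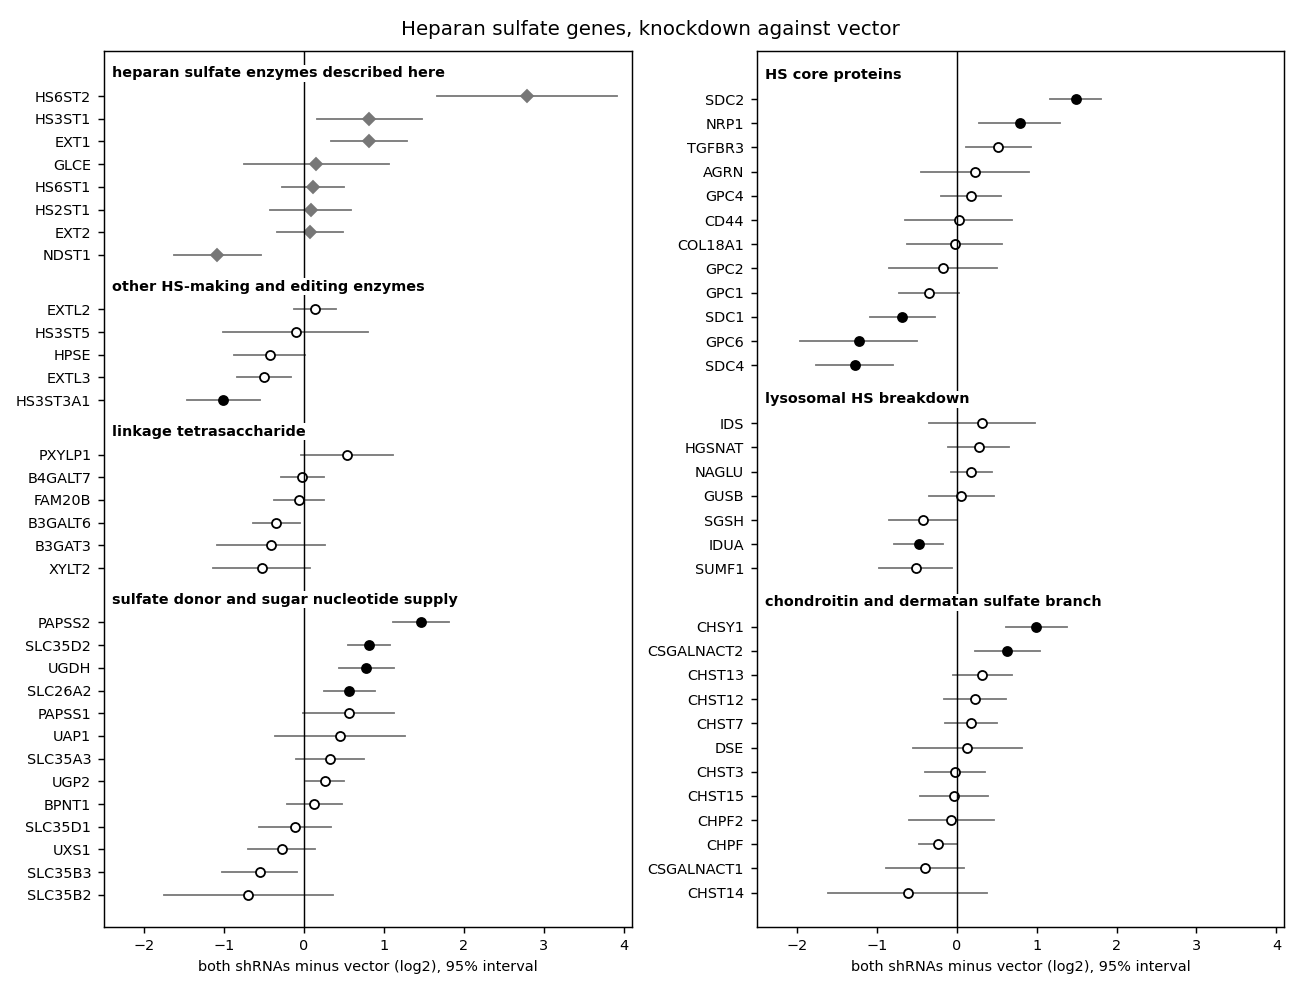
Difference of both hairpins minus vector on the log2 scale with its 95% interval, for the 8 heparan sulfate genes described here (grey diamonds, given without a test) and for 55 other genes of the pathway by list (filled circles: limma adjusted p under 0.05 over all genes). HS6ST1 was detected on 0 vector arrays, so its point is not a measured difference. HS6ST2 lies farthest right at 2.79, SDC2 and PAPSS2 follow at 1.49 and 1.46, and SDC4, GPC6, NDST1 and HS3ST3A1 lie farthest left, between -1.28 and -1.01.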

How the data were processed

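Expression was measured in 9 BON-1 RNA samples on 1-colour arrays, grouped as vector, shRNA 1 and shRNA 2 by the sample labels, with 3 arrays each. The deposited table gives a signal intensity for each of 47231 probes, neither background-subtracted nor normalized as its values show, and beside each intensity a detection p-value, per the file headers. GenomeStudio is named, without a version, in the submitters' processing notes. A deposited value table of processed intensity for 47219 probes, with normalization not given in the sources used here, served as an alternative.

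In limma 3.58.1 (R 4.3.3) the background was corrected with nec (offset 16, negative controls inferred from the detection p-values), followed by quantile normalization and log2. This understates the folds of dim genes. Of all probes 22011 were kept, those with detection p below 0.05 on 3 or more arrays, and the probe of highest mean stood for a gene, which left 12498 genes. In the platform annotation 30108 probes had 1 symbol, 8 had several and 17115 were not listed; 30069 matched RefSeq by gene identifier. A linear model with a mean per group (lmFit, eBayes) was fitted to all genes, with Benjamini-Hochberg adjustment over all of them. The steps were tested on simulated data. The number of arrays limits the precision.

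Members, lists, tests and alternatives were chosen with earlier results of these data known. Named were RABL6, the members, up to 4 called genes of each other list with the largest change plus up to 2 in the opposite direction, and the 3 genes most like each member. NRP1's, GPC6's, PAPSS1's and HPSE's second probes, and PAPSS1 and HPSE themselves, were named after their values were seen. Promoters came from the RefSeq table. EXT1's sequence is not reported here.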

Additional observations from a re-analysis of the deposited data

Results flagged for a closer look

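The SULF2 probe ILMN_1667460, which entered no comparison, reached a raw signal of 151 on shRNA 1 replicate 2, above the 120 to 127 of the vector arrays. It was flagged as a signal above the control arrays in data outside the main measurement. It was detected there (detection p 0.00519) and on shRNA 2 replicate 1 (raw signal 133, detection p 0.0169), and not on the other 4 knockdown arrays.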

How the results depend on the processing

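Of 438 values of named genes against vector under alternatives, 358 kept direction and side of the threshold, 69 kept direction but lost the call, 3 gained it and 8 changed sign; between the hairpins 149 of 166 kept both, 10 gained a call and 7 changed sign. The number of genes called against vector, 2078 on 9 arrays, was 5587 with array weights, 5152 on 7 arrays, 1105 with the replicate block, and 489 to 2582 when 1 array was left out, with the 3 lowest counts (489, 509 and 550) without a vector array. The 13 other pathway genes called became 32 with array weights, 30 on 7 arrays, and 4 to 15 when 1 array was left out. Between the hairpins 0 genes became 4346 with array weights and 5151 on 7 arrays. The causes were not tested, and where 1 array was left out the number of arrays was smaller as well. Median centring gave -0.11 for EXT2, 0.00 for GLCE and -0.082 for HS2ST1 against vector, and array weights -0.053 for HS6ST1, whose probe is near background. With 1 array left out, differences from vector ran from -0.026 to 0.15 for EXT2, -0.066 to 0.40 for GLCE and -0.045 to 0.18 for HS2ST1. Differences between the hairpins ran from -0.39 to 0.059 for EXT1, -0.27 to 0.063 for EXT2, -0.12 to 0.99 for HS6ST2 and -0.41 to 0.062 for NDST1. Deviations of arrays with the same number correlated between -0.89 and 0.15, above 0.1 in 1 of 9 pairs, so the numbers were not taken to pair the samples. Pairs between the hairpins include the arrays that went against their labels, so these values do not show that no set was shared. Among other pathway genes the replicate block put GPC6 (limma adjusted p 0.0908), NRP1 (0.113), CSGALNACT2 (0.0839) and IDUA (0.088) above the threshold. The replicate block also ended the call of EXT1. Signal near background limits HS6ST1, HS6ST2 with vector, NDST1 and HS3ST3A1 with knockdown, IDUA, and SULF2.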
